A study of Homo sapiens with 20 samples.

Results

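Pyruvate dehydrogenase control was followed here through 9 genes, which encode the 4 pyruvate dehydrogenase kinases (PDK1, PDK2, PDK3 and PDK4), the catalytic subunits of the phosphatases (PDP1 and PDP2) and 3 subunits of the enzyme complex (PDHA1, PDHB and DLAT). They were chosen by gene symbol among 27896 symbols of the count table, with the transcript of most reads standing for each symbol. All 9 passed the filter on low counts, out of 16432 genes tested.

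The pyruvate dehydrogenase complex of mitochondria turns pyruvate into acetyl-CoA and so commits carbon from glucose to oxidation. The kinases switch the complex off by phosphorylating its alpha subunit, encoded by PDHA1, and the phosphatases switch it on again. PDK4 is a well known target of glucocorticoids and of fasting, when tissues such as muscle and liver spare glucose.

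RNA was measured in HEK293-GR cells, a human embryonic kidney line that constitutively expresses the glucocorticoid receptor (GR), so the receptor level is not that of the parent line. The 4 groups, with 4 biological replicates each, were siBCOR dex, siBCOR vehicle, siNON dex and siNON vehicle. siBCOR cells received a small interfering RNA pool against BCOR, a corepressor of the Polycomb type, and siNON cells a non-targeting pool, at 20 nM for 72 h. Dex cells then received 100 nM dexamethasone, a synthetic glucocorticoid, for 6 h and vehicle cells ethanol, all in steroid-depleted medium. ChIP-seq of BCOR followed 1 h of 100 nM dexamethasone or ethanol, with 2 libraries each, in cells with no siRNA named in their labels. The cells for ChIP-seq and for RNA alike had 48 h of steroid-depleted medium.

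The promoters of PDK4 and PDHA1 are shown because a BCOR peak lay within 1 kb of each start site, and that of PDK3 as a kinase gene that differed after depletion with no peak within 50 kb. Each line holds the 250 bases before a RefSeq start, with CpG dinucleotides in capitals.
PDK4 promoter, GRCh38.p14 chr7:95596517-95596766, minus strand: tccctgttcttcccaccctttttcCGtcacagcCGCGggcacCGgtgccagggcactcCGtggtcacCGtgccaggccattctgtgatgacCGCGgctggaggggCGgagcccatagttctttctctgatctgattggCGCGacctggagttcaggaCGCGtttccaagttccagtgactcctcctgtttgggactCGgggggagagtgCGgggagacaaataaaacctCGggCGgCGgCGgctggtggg
PDHA1 promoter, GRCh38.p14 chrX:19343677-19343926, plus strand: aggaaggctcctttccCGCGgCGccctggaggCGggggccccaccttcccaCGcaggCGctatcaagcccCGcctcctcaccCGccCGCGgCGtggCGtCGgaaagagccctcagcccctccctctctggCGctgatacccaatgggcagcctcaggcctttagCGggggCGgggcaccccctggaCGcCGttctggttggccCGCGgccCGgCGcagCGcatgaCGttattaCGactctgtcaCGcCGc
PDK3 promoter, GRCh38.p14 chrX:24465036-24465285, plus strand: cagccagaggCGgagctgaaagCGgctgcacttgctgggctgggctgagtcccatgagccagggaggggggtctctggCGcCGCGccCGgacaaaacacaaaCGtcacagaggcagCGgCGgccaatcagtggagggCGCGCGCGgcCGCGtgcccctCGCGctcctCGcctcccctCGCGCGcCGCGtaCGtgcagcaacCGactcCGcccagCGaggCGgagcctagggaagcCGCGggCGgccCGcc
These windows hold 19 CpGs in PDK4, 27 in PDHA1 and 32 in PDK3, against a median of 11 over 35116 RefSeq promoters. RefSeq sequences matched 8 of the 9 symbols, with 11 promoters, where CpGs numbered 5 and 34 in the 2 PDK1 windows, 10, 24 and 16 in the 3 PDK2 windows, 26 in PDHB, 21 in DLAT and 17 in PDP2. The letters CCAAT were found on either strand in 7 of the 11 windows, PDK4, PDHA1 and PDK3 included, and in 32.0% of all promoters. The letters GGGCGG, which contain a CpG, were found in 8 of 11, again with these 3 genes, and in 42.6% of all. ACANNNTGT, the spacing of the GR palindrome, was found in 0 of 11 and in 4.61% of all promoters, which says only that these letters are not in the windows. The peaks are placed on hg19 and were not converted, so their place within these sequences is not given.

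Counts over the chosen transcripts ran between 18580294 and 28054808 per library, and levels are given as CPM, read counts scaled to library size. BCOR averaged 14.7 ± 0.706 CPM in siBCOR dex against 93.8 ± 15.9 CPM in siNON dex, and 22.4 ± 0.795 CPM in siBCOR vehicle against 196.1 ± 29.4 CPM in siNON vehicle (SD, n = 4). BCOR was thus also lower with hormone. The log2 fold change was -0.60 ± 0.122 SE in siBCOR cells (adjusted p = 0.00155 by edgeR) and -1.06 ± 0.113 in siNON cells (adjusted p = 1.45e-06). All 8 markers of HEK293 cells passed the filter, with summed levels of 1215 to 1268 CPM in siBCOR dex, 1212 to 1381 CPM in siBCOR vehicle, 1484 to 1599 CPM in siNON dex and 1335 to 1584 CPM in siNON vehicle. Little of these sums came from PAX2, with group means of 2.77 to 4.63 CPM, or from NEFM, with 7.64 to 9.06 CPM. Of 13 markers of blood, endothelial, fibroblast, liver, muscle and fat cells 5 passed, 0 were at 0 in all libraries, and the summed level of the 13 lay between 2.42 and 4.59 CPM everywhere.

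Some libraries stood apart from their group. The main axis of variation within groups held 39.1% of that variance, and siNON dex replicate 4 scored 0.956 SD on it, against -1.1 to -1.72 SD in the other siNON dex libraries. Replicate 3 of siNON vehicle scored 1.36 SD, against -0.66 to -1.11 SD in the others of its group, and siBCOR vehicle replicate 2 scored -1.46 SD, against -0.0074 to 0.939 SD. Group means on the axis were 1.02 SD in siBCOR dex (0.649 to 1.52 over its libraries) and 0.058 SD in siBCOR vehicle (-1.46 to 0.939). They were -0.76 SD in siNON dex (-1.72 to 0.956) and -0.32 SD in siNON vehicle (-1.11 to 1.36). The ranges overlap, siBCOR dex has the highest mean, and differences between groups along the axis were not tested.

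With dexamethasone in siBCOR cells PDK4 and PDHA1 rose by edgeR's test, 2 of 9, where 10.5% of all genes rose and 23.1% were called. In siNON cells the same 2 rose and PDK1 fell, where 10.7% of all genes rose and 8.64% fell, 19.4% in all. Depletion in dexamethasone gave 5 calls, with PDK1, PDK3, PDK4 and PDP1 higher and PDK2 lower in siBCOR cells, where 20.7% of all genes were higher, 18.8% lower and 39.5% called in all. Depletion in vehicle gave 1 call, PDP2, higher in siBCOR cells, where 8.87% of all genes were higher and 17.1% were called. With 9 genes, these shares rest on 1 to 5 genes each.

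The median log2 fold change of the 9 was 0.0079 with hormone in siBCOR cells, against 0.0035 over all genes, and 0.12 in siNON cells, against -0.0044. It was 0.086 for depletion in dexamethasone, against 0.025, and 0.078 for depletion in vehicle, against 0.025. Libraries of the compared groups did not overlap for 3, 3, 6 and 1 of the 9 in these comparisons, where 30.7%, 19.9%, 34.2% and 18% of all genes did not. Without replicate 4 of siNON dex and replicate 3 of siNON vehicle, the called members numbered 3, 4, 6 and 3, and the called genes 5646, 3422, 8894 and 4016, against 3789, 3180, 6489 and 2809 with all libraries. These libraries were picked because they stand apart, with earlier results known. Both scored highest of their group on the axis. Replicate 2 of siBCOR vehicle, which also stood apart, at -1.46 SD, was kept. Leaving out the siNON libraries lowers both siNON means on the axis, away from the siBCOR means, so it is not an even check.

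**Figure D1:**
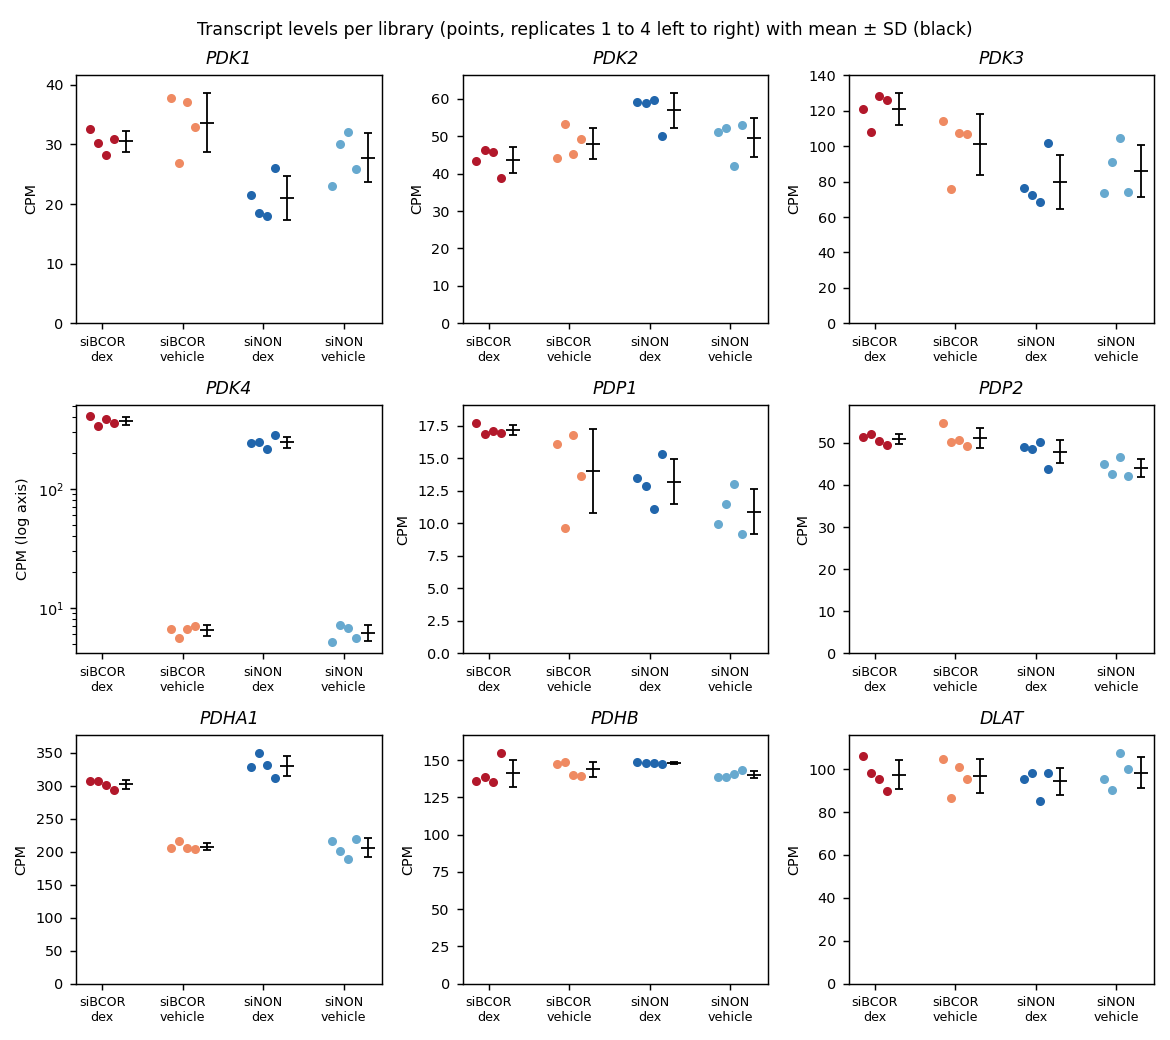
CPM of the 9 genes in each library, as points for replicates 1 to 4 of siBCOR dex, siBCOR vehicle, siNON dex and siNON vehicle, with mean ± SD in black and a log axis for PDK4 only. PDK4 lies at 217.9 to 410.0 CPM in the dex libraries and at 5.14 to 7.16 CPM in the vehicle libraries, while PDHB and DLAT stay within narrow ranges.

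Levels between genes can be compared only per length, as RPKM, CPM divided by the exon length of the chosen transcript in kilobases. In siNON vehicle the order was PDHB (88.4 ± 1.47 RPKM), PDHA1 (59.4 ± 4.16), DLAT (22.7 ± 1.66), PDK2 (18.8 ± 1.97), PDK3 (6.73 ± 1.15), PDP2 (6.11 ± 0.301), PDK1 (5.98 ± 0.872), PDP1 (2.50 ± 0.390) and PDK4 (1.67 ± 0.257 RPKM). PDK3, PDP2 and PDK1 did not differ beyond their spread in that order. PDK4 was also last in siBCOR vehicle, at 1.76 ± 0.176 RPKM, where PDK3 (7.93 ± 1.35), PDK1 (7.25 ± 1.07) and PDP2 (7.10 ± 0.331) again overlapped.

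With dexamethasone PDK4 stood among the subunits of the complex. In siBCOR dex PDK4 had 101.4 ± 8.49 RPKM, next to PDHB at 88.9 ± 5.69 and PDHA1 at 86.9 ± 1.79 RPKM. In siNON dex PDK4 had 67.1 ± 7.10 RPKM, below PDHA1 at 95.03 ± 4.43 and PDHB at 93.3 ± 0.482 RPKM, which did not differ beyond their spread. DLAT and PDK2 did not differ beyond theirs in siNON dex, at 21.8 ± 1.44 and 21.5 ± 1.75 RPKM.

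The make-up of the kinase transcripts turned with hormone. PDK4 made up 75.6 ± 1.32% of the summed kinase RPKM in siBCOR dex and 4.99 ± 0.346% in siBCOR vehicle, and 67.4 ± 2.18% in siNON dex and 5.02 ± 0.595% in siNON vehicle (SD, n = 4). PDK2, the broadly expressed kinase, made up 12.4 ± 1.24%, 51.9 ± 6.01%, 21.8 ± 3.15% and 56.7 ± 6.04% in the same groups. PDK2 was thus the main kinase transcript in all vehicle libraries and PDK4 in all dex libraries. The PDK4 share was 73.9 to 77.2% in siBCOR dex libraries and 65.0 to 70.1% in siNON dex libraries, which do not overlap.

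The summed kinase level was 133.9 ± 9.06 RPKM in siBCOR dex, 35.1 ± 1.15 RPKM in siBCOR vehicle, 99.5 ± 7.33 RPKM in siNON dex and 33.2 ± 1.59 RPKM in siNON vehicle. Divided by the summed phosphatase level, it came to 12.2 ± 0.762, 3.41 ± 0.248, 10.3 ± 0.752 and 3.86 ± 0.340 in these groups. The ratio was higher in every dex library than in every vehicle library, and it describes transcripts, not enzyme activity. These sums and shares carry no test, since PDK4 alone sets most of them. They take PDK3 at 6.73 RPKM in siNON vehicle, where a shorter transcript of that gene gives 11.2 RPKM. The sums, shares and ratios thus depend on the PDK3 transcript read.

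**Figure D2:**
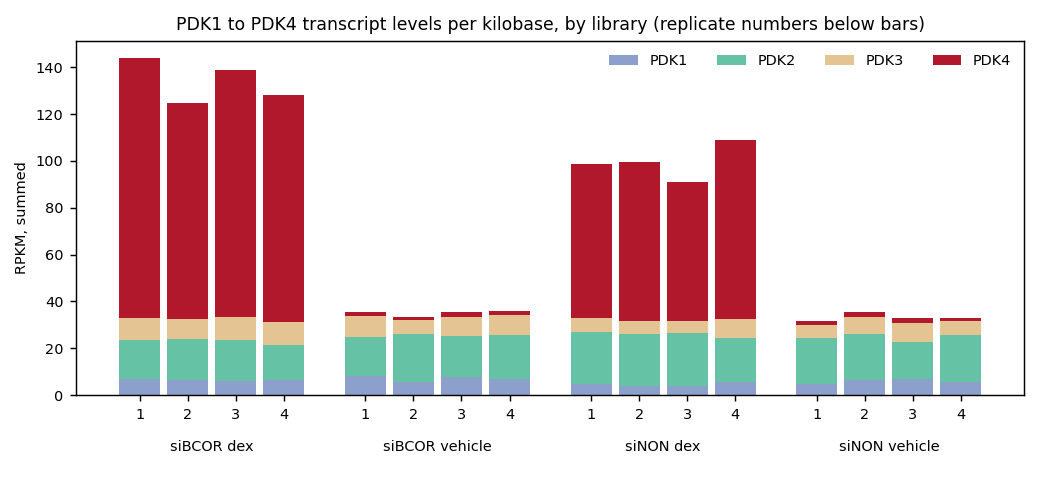
Stacked RPKM of PDK1, PDK2, PDK3 and PDK4 in each of the 16 libraries, by group and replicate. The PDK4 part reaches 65.0 to 77.2% of the bar in the dex libraries and stays at 4.42 to 5.57% in the vehicle libraries, where PDK2 is the largest part.

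PDK4 (NM_002612, hg19 chromosome 7, 95212809 to 95225925, minus strand) encodes the kinase isoform most responsive to hormones and diet. It stood at 410.0, 340.0, 388.3 and 357.1 CPM in siBCOR dex and at 6.67, 5.55, 6.63 and 7.05 CPM in siBCOR vehicle. In siNON dex PDK4 had 242.0, 248.8, 217.9 and 281.4 CPM, and in siNON vehicle at 5.14, 7.16, 6.73 and 5.60 CPM. Each siBCOR dex library lay above each siNON dex library, and the vehicle groups overlapped.

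Hormone raised PDK4 57.7-fold in siBCOR cells (log2 fold change 5.85 ± 0.12 SE) and 40.3-fold in siNON cells (5.33 ± 0.118), the smallest and second smallest p of all genes by edgeR. Depletion raised it in dexamethasone (0.59 ± 0.0930, adjusted p = 0.000224 by edgeR) and left it at 0.078 ± 0.12 in vehicle (adjusted p = 0.72), with an interval of -0.18 to 0.33. The difference between the hormone responses, siBCOR minus siNON, was 0.52 ± 0.152, with an unadjusted p of 0.00344 and an adjusted p of 0.195 by edgeR. Left without siNON dex replicate 4, that difference was 0.58 (adjusted p = 0.0295), and without replicate 3 of siNON vehicle as well it was 0.55 (adjusted p = 0.0305), so the call depends on these libraries. In bulk RNA, fewer cells that carry a transcript and less of it per cell cannot be told apart.

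No gene of the 9 had a called interaction, where 0.0974% of all genes did, 16 in number. DESeq2 called 0 of the 9 as well, and 2 of them, PDK4 and PDK2, had an unadjusted p under 0.05 in edgeR, as 19.3% of all genes did. The median interaction of the 9 was 0.015, against -0.017 over all genes. Without siNON dex replicate 4, PDK4 and PDK2 were called, and 2537 genes in all.

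PDK1 (NM_002610, chromosome 2, 173420697 to 173463862), the kinase known for its induction by low oxygen, was higher after depletion in dexamethasone. It had 32.6, 30.2, 28.2 and 31.0 CPM in siBCOR dex, against 21.6, 18.5, 18.0 and 26.0 CPM in siNON dex, groups that do not overlap (0.54 ± 0.131, adjusted p = 0.00512 by edgeR). It had 37.8, 26.9, 37.0 and 32.9 CPM in siBCOR vehicle, against 23.1, 30.1, 32.1 and 25.9 CPM in siNON vehicle, which overlap (0.28 ± 0.129, adjusted p = 0.153). Replicate 2 is the low library of siBCOR vehicle, and without it the vehicle difference was called (0.37, adjusted p = 0.0434).

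With hormone PDK1 fell in siNON cells (-0.41 ± 0.131, adjusted p = 0.0374 by edgeR), although the libraries overlap. The fall was not called without siNON dex replicate 1, 2 or 3 or siNON vehicle replicate 2 or 3 (-0.34 to -0.42, adjusted p up to 0.123). In siBCOR cells the value was -0.14 ± 0.129 (adjusted p = 0.448).

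PDK2 (NM_002611, chromosome 17, 48172639 to 48188733) went the other way from the other kinases after depletion. It had 43.4, 46.3, 45.9 and 39.0 CPM in siBCOR dex, against 59.3, 58.8, 59.7 and 50.1 CPM in siNON dex, so each siBCOR library was lower (-0.38 ± 0.0898, adjusted p = 0.0042 by edgeR). It had 44.2, 53.4, 45.3 and 49.2 CPM in siBCOR vehicle, against 51.2, 52.3, 41.9 and 53.1 CPM in siNON vehicle, which overlap (-0.048 ± 0.0898, adjusted p = 0.775). Its hormone values were -0.14 ± 0.0899 in siBCOR cells and 0.20 ± 0.0896 in siNON cells, neither called (adjusted p = 0.287 and 0.144), and the difference between them was -0.34 ± 0.127 (adjusted p = 0.223). Without siNON dex replicate 4, the library that stood lowest of its group, the difference was -0.39 (adjusted p = 0.0427) and the hormone rise in siNON cells was called (0.26, adjusted p = 0.0451). Leaving out replicate 3 of siNON vehicle instead brought that hormone value to 0.11. PDK2 overlaps SAMD14 on the opposite strand by 60 bases, and SAMD14 had 5.65% as many reads.

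PDK3 (NM_001142386, X chromosome, 24483344 to 24568583), a kinase isoform abundant in testis, was higher after depletion in dexamethasone. It had 121.1, 108.0, 128.6 and 126.1 CPM in siBCOR dex, against 76.4, 72.4, 68.4 and 101.8 CPM in siNON dex, and replicate 4 of siNON dex came nearest to the siBCOR values without overlap (0.60 ± 0.142, adjusted p = 0.00453 by edgeR). In vehicle it had 114.2, 75.8, 107.7 and 107.2 CPM in siBCOR cells, against 73.8, 90.9, 104.6 and 74.4 CPM in siNON cells, which overlap (0.24 ± 0.142, adjusted p = 0.278). The hormone values were 0.26 ± 0.142 in siBCOR cells and -0.11 ± 0.142 in siNON cells, neither called.

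The table lists PDK3 also as a shorter transcript, NM_005391, with 1790 exon bases against 12765. Its reads came to 23.0 ± 1.64 CPM in siBCOR dex, 22.8 ± 0.708 CPM in siBCOR vehicle, 19.8 ± 0.931 CPM in siNON dex and 20.0 ± 2.01 CPM in siNON vehicle. Depletion in dexamethasone gave 0.21 ± 0.078 for the short transcript (adjusted p = 0.0396 by edgeR), a smaller value than the 0.60 of the long one. The short transcript's reads were 19.0 ± 1.38% of the long one's in siBCOR dex and 25.3 ± 3.41% in siNON dex. Both start at the same base, and reads in exons they share can be counted for both. These values therefore do not measure the transcripts separately, and a shift between them was not tested. The short transcript gives 12.8 RPKM in siBCOR dex, where the long one gives 9.48. The rank of PDK3 and the kinase sums and shares therefore depend on which is read.

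**Figure D3:**
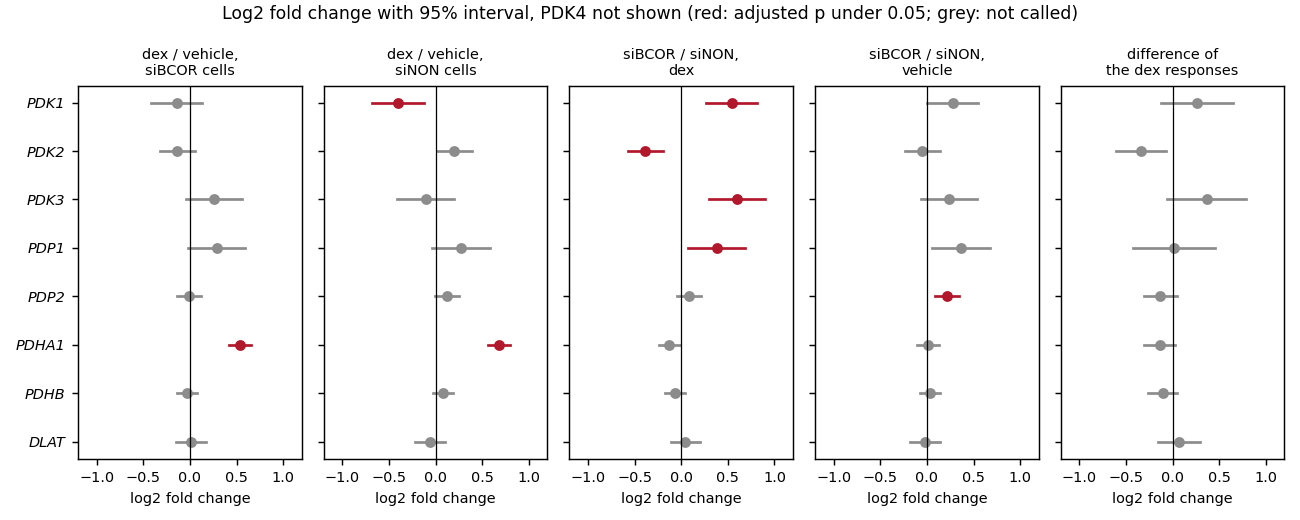
Log2 fold change and 95% interval of 8 of the genes in the 5 comparisons, with PDK4 left out because its hormone values of 5.85 and 5.33 lie off the axis. Red marks an adjusted p under 0.05, which PDK1, PDK2, PDK3 and PDP1 reach for depletion in dexamethasone, PDHA1 for both hormone comparisons, PDK1 for hormone in siNON cells and PDP2 for depletion in vehicle.

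PDP1 (NM_001161779, chromosome 8, 94929175 to 94938296), the calcium-stimulated phosphatase, had the lowest RPKM of the 9 in both dex groups (3.94 ± 0.0854 in siBCOR dex and 3.03 ± 0.402 in siNON dex). It had 17.7, 16.9, 17.1 and 17.0 CPM in siBCOR dex, against 13.5, 12.9, 11.1 and 15.4 CPM in siNON dex, groups that do not overlap (0.38 ± 0.145, adjusted p = 0.0466 by edgeR). That call was lost in 12 of 24 alternatives, with adjusted p up to 0.146. In vehicle it had 16.1, 9.64, 16.8 and 13.6 CPM in siBCOR cells, against 9.95, 11.5, 13.0 and 9.16 CPM in siNON cells, where siBCOR replicate 2 is the low one (0.37 ± 0.148, adjusted p = 0.0995). Without it the difference was 0.51 (adjusted p = 0.00757). Hormone gave 0.29 ± 0.144 in siBCOR cells and 0.27 ± 0.149 in siNON cells, not called in either.

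PDP2 (NM_001329933, chromosome 16, 66914405 to 66925002), the calcium-insensitive phosphatase, was higher after depletion in vehicle. It had 54.7, 50.1, 50.6 and 49.3 CPM in siBCOR vehicle, against 44.9, 42.6, 46.8 and 42.1 CPM in siNON vehicle, groups that do not overlap (0.22 ± 0.0607, adjusted p = 0.021 by edgeR). This call was lost in 8 alternatives, 4 of which leave out 1 library: siBCOR vehicle replicate 1 or siNON vehicle replicate 2, 3 or 4 (adjusted p between 0.0542 and 0.0983 over the 8). It had 51.3, 52.1, 50.5 and 49.5 CPM in siBCOR dex, against 49.0, 48.6, 50.1 and 43.8 CPM in siNON dex (0.086 ± 0.0606, adjusted p = 0.261).

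PDHA1 (NM_001173454, X chromosome, 19362011 to 19379826), the alpha subunit that the kinases phosphorylate, was the only one of the 3 subunits that hormone raised. It had 306.3, 306.8, 300.9 and 293.4 CPM in siBCOR dex, against 204.8, 215.7, 206.2 and 204.5 CPM in siBCOR vehicle (0.54 ± 0.0546, adjusted p = 8.80e-07 by edgeR). It had 328.4, 348.9, 331.6 and 311.4 CPM in siNON dex, against 215.9, 201.1, 188.2 and 219.7 CPM in siNON vehicle (0.68 ± 0.0547, adjusted p = 4.08e-08). Every dex library lay above every vehicle library, with a rise of 1.45-fold in siBCOR cells and 1.60-fold in siNON cells. The difference between these rises was not called (-0.14 ± 0.0770, adjusted p = 0.297). Depletion in dexamethasone gave -0.13 ± 0.0543 (adjusted p = 0.068 by edgeR), with each siBCOR dex library below each siNON dex library, and depletion in vehicle gave 0.011 ± 0.0545. The difference in dexamethasone was called in 6 of 24 alternatives. They were DESeq2 (-0.15, adjusted p = 0.0421), upper-quartile scaling (-0.19, adjusted p = 0.0369), a fit of only the compared groups (adjusted p = 0.0423), and fits without replicate 4 of siNON dex (adjusted p = 0.0307), without replicate 3 of siNON vehicle (adjusted p = 0.0328) or without both (-0.20, adjusted p = 0.00447). MAP3K15 overlaps PDHA1 on the opposite strand by 1650 bases and had 9.27% as many reads.

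PDHB (NR_033384, chromosome 3, 58413357 to 58419566, minus strand), the beta subunit, and DLAT (NM_001931, chromosome 11, 111895538 to 111935002), the acetyltransferase core, were not called in any comparison. PDHB lay between 135.3 and 154.6 CPM in the 16 libraries, at 147.3 to 149.1 CPM in siNON dex and 138.6 to 143.6 CPM in siNON vehicle, which do not overlap (0.078 ± 0.0508, adjusted p = 0.328 by edgeR). DLAT lay between 85.3 and 107.4 CPM, with fitted values between -0.060 and 0.068 over the 5 comparisons. The 95% intervals for hormone were -0.16 to 0.17 in siBCOR cells and -0.22 to 0.099 in siNON cells for DLAT. PIH1D2 overlaps DLAT on the opposite strand by 268 bases, with 2.41% as many reads.

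The 5 genes that differed after depletion in dexamethasone also moved with the main axis of variation within groups, as did PDHA1 and DLAT, not called there. This axis is drawn from all genes tested and holds 39.1% of their variance within groups. The share of all genes that move with it as closely was not computed, so whether this is particular to these genes was not tested. Over 16 libraries, as deviations from group means, Pearson's r with the axis was 0.88 for PDK1, -0.93 for PDK2, 0.92 for PDK3, 0.87 for PDP1, 0.67 for PDK4, -0.78 for PDHA1 and 0.64 for DLAT, against -0.069 for PDP2 and -0.022 for PDHB. The directions of PDK1, PDK2, PDK3, PDP1 and PDK4 along the axis are those of their differences in dexamethasone, where siBCOR averaged 1.02 SD and siNON -0.76 SD. The axis' part in these differences was not tested. Leaving out replicate 4 of siNON dex widens the distance between these groups on the axis, so values without it do not bear on that part. Without it and replicate 3 of siNON vehicle the differences in dexamethasone were 0.62 for PDK1, -0.48 for PDK2, 0.70 for PDK3, 0.62 for PDK4 and 0.42 for PDP1 (adjusted p = 0.0125 or less by edgeR).

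**Figure D4:**
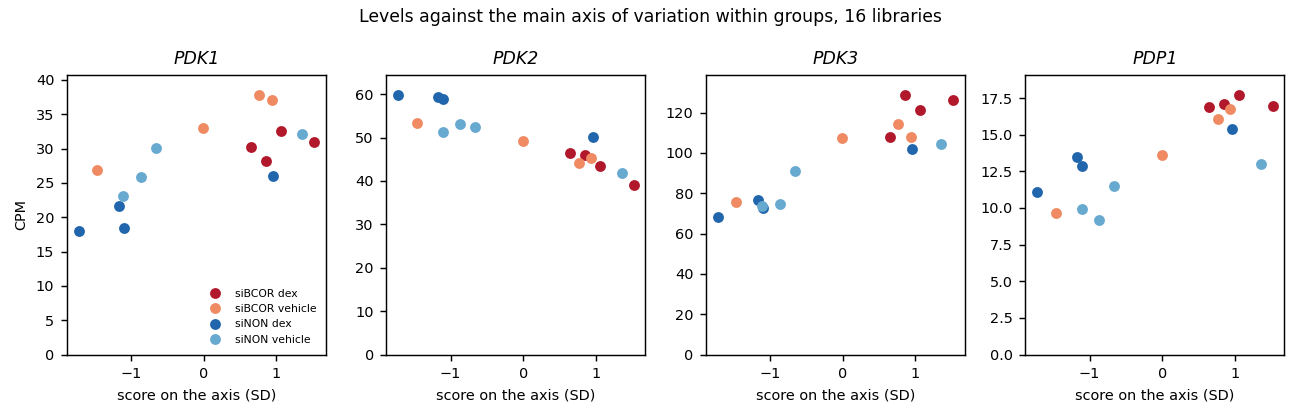
CPM of PDK1, PDK2, PDK3 and PDP1 against the score of each library on the main axis of variation within groups, in SD, coloured by group. PDK1, PDK3 and PDP1 are higher and PDK2 lower toward the right, where all siBCOR dex libraries lie at 0.649 SD or more together with siBCOR vehicle replicates 1 and 3, replicate 4 of siNON dex and replicate 3 of siNON vehicle.

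BCOR peaks lay close to 2 of the 9 start sites. PDK4 had a dex-enriched peak at 95226381 to 95226715 on chromosome 7, 456 bases upstream of its start, and further dex-enriched peaks at 95238279 to 95238613 and 95258233 to 95258567, 12354 and 32308 bases upstream. A shared peak at 95174163 to 95174497 lay 51428 bases downstream of the start. PDHA1 had a shared peak at 19361491 to 19361825 on the X chromosome, 186 bases upstream, and one 28388 bases downstream. A dex-enriched peak within 1 kb was found at 1.16% of all genes tested, and PDK4 was the only one of the 9, while a shared peak was found at 18.4%, and PDHA1 was the only one.

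PDK2 had shared peaks 5430 bases downstream of its start, within the gene, 7738 bases upstream and 39507 bases upstream, the last 200 bases from the start of ITGA3. PDHB had shared peaks 10923 and 37503 bases upstream and a vehicle-enriched one at 58425 bases. PDP2 had a shared peak at 49040 bases, 102 bases from the start of NAE1. PDK3 had a dex-enriched peak 93685 bases upstream, and no peak lay within 100 kb of PDK1, PDP1 or DLAT, whose nearest were 127366, 242310 and 295735 bases away. In all, 3 of the 9 had a peak within 10 kb, 5 within 50 kb and 6 within 100 kb, as 30.5%, 54.3% and 69.4% of all genes did. PDK1, PDK3 and PDP1, 3 of the 5 genes that differed after depletion in dexamethasone, had none within 50 kb.

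Among the 191 genes with a dex-enriched peak within 1 kb of the start, 66 rose and 19 fell with hormone in siBCOR cells, and 60 rose and 9 fell in siNON cells. Of all genes tested, 10.5% rose in siBCOR cells and 10.7% in siNON cells, and 23.1% and 19.4% were called in either direction. The rise of PDK4 was the 3rd largest of the 191 in siBCOR cells and the 4th largest in siNON cells. For depletion in dexamethasone 56 were higher and 40 lower, where 20.7% and 18.8% of all genes were, with a median of 0.077, where PDK4 ranked 14th from the top.

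**Figure D5:**
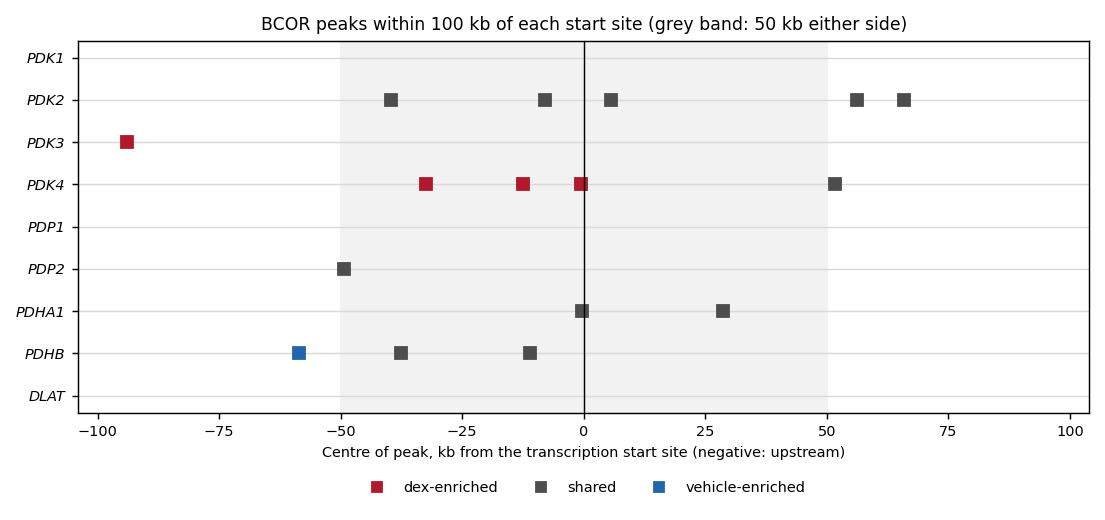
Centres of BCOR peaks within 100 kb of the 9 start sites, in kb, with upstream to the left and classes by colour. PDK4 has 3 dex-enriched peaks within 50 kb, PDHA1 and PDK2 have shared peaks, and PDK1, PDP1 and DLAT have none.

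The 5 genes whose log2 CPM was most like that of PDK4 over the 16 libraries, out of 13421 with a mean of at least 50 counts, were TIPARP, WNT16, PHLDA1, ZFAND5 and FAM49A, with Pearson's r of 0.999, 0.998, 0.997, 0.997 and 0.996. The treatments form separate clusters, so r mostly reflects the step between them. TIPARP, an ADP-ribosyltransferase, averaged 1175 ± 41.2 CPM in siBCOR dex, 36.7 ± 5.22 CPM in siBCOR vehicle, 900.2 ± 105.2 CPM in siNON dex and 30.8 ± 4.23 CPM in siNON vehicle. WNT16, a secreted Wnt ligand, averaged 66.3 ± 1.85, 5.91 ± 0.128, 52.0 ± 3.37 and 4.93 ± 0.647 CPM in the same groups. For these genes, depletion in dexamethasone gave 0.38 in TIPARP, 0.35 in WNT16 and 0.36 in ZFAND5, all called by edgeR, 0.091 in PHLDA1 and 0.22 in FAM49A. The nearest dex-enriched peak lay 20, 30, 228036, 645 and 16105 bases from their starts in the order of the list. Among the 9, PDHA1 was most like PDK4, with r = 0.952 over the same libraries.

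Of 18 other genes of pyruvate handling tested, 0 rose and 4 fell in siBCOR cells, with a median of -0.016 against 0.0035 over all genes, and 3 rose and 0 fell in siNON cells, with a median of -0.030 against -0.0044. Of all genes, 23.1% were called in siBCOR cells and 19.4% in siNON cells. In siNON cells the pyruvate carboxylase gene PC (0.36 ± 0.0909), the phosphatase regulator gene PDPR (0.32 ± 0.0859) and the lipoyl transferase gene LIPT2 (0.28 ± 0.0931) rose. In siBCOR cells the citrate synthase gene CS (-0.35), the deacetylase gene SIRT3 (-0.31), LDHA (-0.23), which makes lactate from pyruvate, and PCK2 (-0.66) fell.

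After depletion 3 of the 18 were higher and 4 lower in dexamethasone, where 39.5% of all genes were called, a like share. With vehicle 4 were higher and 1 lower, where 8.87% of all genes were higher and 17.1% were called. PDHX, a further subunit of the complex, averaged 55.6 ± 1.60 CPM in siBCOR dex against 45.8 ± 4.32 CPM in siNON dex, and 53.5 ± 4.28 CPM in siBCOR vehicle against 44.7 ± 3.39 CPM in siNON vehicle, higher in both comparisons (0.28, adjusted p = 0.0106, and 0.26, adjusted p = 0.0295, by edgeR). The pyruvate kinase gene PKM averaged 1656 ± 19.9 CPM in siBCOR dex against 2247 ± 106 CPM in siNON dex (-0.44, adjusted p = 0.00022), and was lower in vehicle too (-0.23). PDPR (0.33) and SIRT4 (0.47) were higher in siBCOR vehicle, and CS (-0.35) and the citrate lyase gene ACLY (-0.29) were lower in siBCOR dex.

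Of 22 genes listed as regulators of PDK genes, 4 rose and 6 fell with hormone in siBCOR cells, with a median of -0.060. In siNON cells 6 rose and 3 fell, with a median of 0.094. Over all genes, 23.1% were called in siBCOR cells and 19.4% in siNON cells, with medians of 0.0035 and -0.0044. KLF15, a factor induced by glucocorticoids, averaged 71.2 ± 4.11 CPM in siBCOR dex against 18.7 ± 2.25 CPM in siBCOR vehicle (1.93 ± 0.0884, adjusted p = 2.55e-11 by edgeR) and 57.4 ± 1.97 CPM in siNON dex against 17.1 ± 1.66 CPM in siNON vehicle (1.74 ± 0.0884). PPARA, a fatty acid sensor that drives PDK4 in liver, rose by 0.33 in siBCOR cells and by 0.52 in siNON cells. STAT5A rose too, by 2.87 in siBCOR cells and by 4.68 in siNON cells. It stayed at no more than 2.64 CPM on average in any group. NR3C1, the receptor gene, fell by 0.36 and 0.50 in siBCOR and siNON cells, where reads of the introduced receptor cannot be told apart from those of the cells' own gene.

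Depletion left these regulators with 6 higher and 5 lower in dexamethasone, where 20.7% of all genes were higher and 18.8% lower. With vehicle 4 were higher and 3 lower, where 8.87% of all genes were higher and 17.1% were called. FOXO3, a factor that raises PDK4 in fasted muscle, averaged 38.4 ± 2.77 CPM in siBCOR dex against 67.4 ± 2.87 CPM in siNON dex, and 31.9 ± 2.86 CPM in siBCOR vehicle against 50.3 ± 5.73 CPM in siNON vehicle. FOXO3 was thus lower after depletion in both treatments (-0.81, adjusted p = 5.14e-06, and -0.66, adjusted p = 8.69e-05, by edgeR). AKT1, a kinase of insulin signalling, was lower in both as well (-0.46 and -0.29), and E2F1 (-0.44) and STAT5A (-0.87) were lower in siBCOR dex. In vehicle PPARA (0.35) and PPARG (0.27) were higher.

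Of 22 fatty acid oxidation genes, 6 rose and 2 fell with hormone in siBCOR cells, with a median of 0.021. In siNON cells 5 rose and 0 fell, with a median of 0.087. Over all genes, 23.1% were called in siBCOR cells and 19.4% in siNON cells, with medians of 0.0035 and -0.0044. ACSL1, which activates long-chain fatty acids, averaged 237.2 ± 11.1 CPM in siBCOR dex against 76.6 ± 5.42 CPM in siBCOR vehicle, and 303.7 ± 9.76 CPM in siNON dex against 63.5 ± 3.19 CPM in siNON vehicle. Its response was smaller in siBCOR cells (-0.63 ± 0.0840, adjusted p = 0.0081 by edgeR), and it was the 1 gene of all 3 lists with a called interaction. PLIN2, a lipid droplet coat gene, rose by 0.67 and 0.92, and CPT1B by 0.28 and 0.21, in siBCOR and siNON cells. ACADM rose in siBCOR cells (0.47) and CPT2 in siNON cells (0.29).

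Depletion in dexamethasone lowered 8 of these 22 and raised 3, where 18.8% of all genes were lower and 20.7% higher. HADH (-0.38), ACSL1 (-0.36), ACADVL (-0.29) and UCP2 (-0.41) were among the lower ones. In vehicle 4 were higher, ACSL1 (0.27) and HADHB (0.25) among them, and 2 lower, with HADH at -0.25. There 8.87% of all genes were higher and 17.1% were called.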

How the data were processed

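Raw read counts, summed by the authors over the exons of 65572 RefSeq transcripts on hg19, were made with HOMER without depth adjustment, per the file headers, whose counting command names no strand option, so genes that overlap on opposite strands may share reads. Exon lengths are those of the deposited table. The submitters' processing notes also name Trimmomatic, TopHat2, FastQC, Bowtie 0.12.9, HOMER 4.10.3 and bedtools. The authors gave BCOR peaks as 267 vehicle-enriched, 3055 dex-enriched and 8587 shared regions, 1 list per class, and the rule for the classes is not given in the sources used here. The score column of the deposited lists is 0 for every peak, so peaks were not ranked.

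The transcript with the most reads stood for each of 27896 symbols. Another 134 transcripts without a gene name, with 0.0664% of the counts, were left out. Among the 24 pairs of RNA replicates of one group, the lowest mean chi-square per gene was 2.84, above sampling noise. The series text names 3 replicates, while 4 are labelled and were used.

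Genes were filtered with edgeR's default, scaled by TMM and fitted with 4 group means over all 16 libraries by edgeR 4.0.16 quasi-likelihood tests in R 4.3.3 with limma 3.58.1. Two-sided p-values were adjusted by Benjamini-Hochberg over 16432 genes and called at 0.05. Folds are given on the log2 scale ± SE, with intervals at 95%, and levels as CPM or RPKM ± SD (n = 4). The axis of variation within groups is the first singular vector of log2 CPM (prior count 2) after removal of group means. The interaction is the hormone response in siBCOR cells minus that in siNON cells. The comparisons of hormone with vehicle and of siBCOR with siNON share libraries. The procedure was tested on simulated counts, drawn for each gene independently, for hormone in siNON cells only. The depletion comparisons, the interaction and an axis of variation shared by genes were not part of that simulation. Alternatives were other scalings, DESeq2 1.42.0, no filter, summed transcripts, a replicate block, fits of the compared groups only and fits without each library.

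Distances run from the start of the chosen transcript to the nearest edge of a peak. Promoters are RefSeq sequences on GRCh38.p14. Named are the 9 genes, BCOR, up to 4 called genes of each of 3 lists per comparison with the smallest adjusted p, and the 5 genes most like PDK4. A result that this rule would name is not reported here. The 9 genes, the lists and the libraries left out together were chosen with earlier results of these data known.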

Additional observations from a re-analysis of the deposited data

Results flagged for a closer look

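Over 36 sets of 4 replicates (9 genes in 4 groups), 2 held a library whose gap to its nearest neighbour was over Dixon's 95% limit for its share of the whole range, where chance gives about 1 in 20. PDK2 stood at 50.1 CPM in siNON dex replicate 4, below the 58.8 to 59.7 CPM of the other siNON dex libraries, with a gap of 0.900 of the range. That library also stands apart on the main axis of variation within groups. PDHA1 stood at 215.7 CPM in siBCOR vehicle replicate 2, above the 204.5 to 206.2 CPM of the other siBCOR vehicle libraries, with a gap of 0.845 of the range. The siBCOR vehicle replicate 2 library is also the lowest of its group for PDK1, PDK3 and PDP1.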

How the results depend on the processing

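The calls of PDK1, PDK2, PDK3 and PDK4 for depletion in dexamethasone, and those of PDK4 and PDHA1 for hormone, held under all 24 alternatives. Depletion in vehicle gave 0 called members with RLE size factors, upper-quartile scaling, no filter or only the 2 groups (1526 genes in all for the last) and 3 without replicate 4 of siNON dex and replicate 3 of siNON vehicle. The interaction called 5 genes with RLE, 6 with upper-quartile scaling, 68 with DESeq2, 5 without a filter, 4 with summed transcripts, 3 with the replicate block and 1785 with both libraries left out, where it called 1 member, PDK4 (0.55, adjusted p = 0.0305). Peaks within 10 kb were found for 3 members. The cause of these changes was not tested.

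Sign changes touched only values near 0 that were not called. They were DLAT for hormone in siBCOR cells (-0.032 with upper-quartile scaling, -0.014 without a filter, -0.015 with summed transcripts), DLAT for depletion in dexamethasone (-0.018 with upper-quartile scaling) and the interaction of PDP1 (-0.016 with upper-quartile scaling). PDHA1 for depletion in vehicle gave -0.023 with RLE, -0.016 with upper-quartile scaling, -0.023 with DESeq2, -0.015 without a filter, -0.0092 with summed transcripts and -0.083 with both libraries left out, where PDHB gave -0.014.

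Leaving out 1 library at a time gave these ranges. Hormone in siBCOR cells gave -0.027 to 0.024 for PDP2 and -0.043 to 0.047 for DLAT. Depletion in vehicle gave 0 to 3 called members, 1810 to 3463 genes, and -0.083 to 0.042 for PDHA1, -0.062 to 0.028 for DLAT, -0.0029 to 0.155 for PDK4 and -0.014 to 0.053 for PDHB. Depletion in dexamethasone gave 4198 to 8170 genes and -0.00034 to 0.082 for DLAT. The interaction gave 2 to 2537 genes, 0 to 2 members, 0.44 to 0.60 for PDK4 and -0.13 to 0.11 for PDP1.

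Same-numbered replicates did not deviate together (r of deviations -0.53 to 0.50 over 24 pairs, 6 of them over 0.1, and 4 of 16 libraries matching best with their own number), so the numbers were not taken to pair the samples. With the replicate block the PDK1 fall in siNON cells was not called (-0.41, adjusted p = 0.0536), nor was PDP1 for depletion in dexamethasone (0.38, adjusted p = 0.0605). Reading each of the 23 other transcripts of these genes as a row of its own, an alternative chosen after seeing the data, changed 0 of 115 calls. Many of these rows count largely the same reads as the chosen transcript. For PDP1 the other rows hold 5017, 5011 and 4976 reads against 5017. The unchanged calls are therefore mostly not a separate check.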
